A study of Homo sapiens with 16 samples.

Results

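The genes described are protein subunits of the respiratory chain and the ATP synthase in both genomes of the cell. Assembly factors whose symbols share the same stems are included. They were chosen by symbol (MT-CO, MT-ND, MT-CYB and MT-ATP for the mitochondrial genome; NDUFA, NDUFB, NDUFC, NDUFS, NDUFV, UQCR, COX4 to COX8, ATP5 and SDHA to SDHD for the nucleus) and by a mean of at least 5 TPM over 16 libraries (a transcript abundance corrected for length and scaled to a fixed total per library). Of 60642 gene symbols in the deposited table, 106 met the rule: 13 encoded by mitochondrial DNA (mtDNA) and 93 by the nucleus. By name alone 269 nuclear symbols matched, 169 of these were dropped as pseudogene, antisense or read-through symbols, and 7 of the remaining 100 fell below the minimum. The mean level therefore chose the members and is given only as a description. The member just inside the minimum was COX7B2, a cytochrome oxidase subunit copy with a mean of 5.29 TPM, and the gene just outside was NDUFA4L2 with 4.59 TPM. Complex I, the NADH dehydrogenase, had 7 mtDNA-encoded and 37 nuclear members, and complex II, succinate dehydrogenase, had 4, all nuclear. Complex III, the cytochrome bc1 complex, had 1 and 9 members, complex IV, cytochrome c oxidase, 3 and 13, and complex V, the ATP synthase, 2 and 18. The complex III subunit CYC1 has a symbol outside the rule and was not a member. A further 12 nuclear members were assembly factors (NDUFAF1 to NDUFAF8 and SDHAF1 to SDHAF4).

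The libraries came from LNCaP, an established androgen-sensitive prostate cancer cell line. The study asked how drug response, predicted from gene expression, was altered by the androgen receptor agonist dihydrotestosterone (DHT) and 3 receptor antagonists. Cells spent 72 h in medium with 5% serum and 48 h with 5% charcoal-stripped serum, which is poor in steroids. They then received 10 nM DHT in ethanol, or ethanol alone, together with 10 µM of an antagonist in DMSO, or DMSO alone, for 48 h. The 8 groups were VEH (both solvents), DHT, and the antagonists bicalutamide, enzalutamide or apalutamide with vehicle (BIC.VEH, ENZ.VEH and APA.VEH) or with DHT (BIC.DHT, ENZ.DHT and APA.DHT), each with 2 samples labelled as biological replicates. All groups shared the one cell line and the steroid-poor medium, so VEH cells had little androgen rather than that of full serum. The sample titles also carry a further number that all samples of the same replicate share across groups, and its meaning is not given. Since nothing in the labels ties a replicate to a separate day or passage, p-values measure only the spread between these samples. Libraries were made from polyadenylated RNA, and the labels give about 40 M read pairs for each. TPM keeps no depth, so no counting interval is given.

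Oxidative phosphorylation passes electrons from NADH and succinate through complexes I to IV to oxygen and uses the proton gradient this builds to make ATP in complex V. The core subunits of complexes I, III, IV and V that mtDNA encodes are transcribed inside the mitochondrion as long polycistronic RNAs from each strand, which are then cut into separate messages. Most subunits are nuclear, are made in the cytosol and imported, and the complexes need both sets. Prostate epithelium is known for an unusual citrate metabolism, and prostate cancer cells oxidise more citrate than their normal counterparts.

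The promoters shown are those of the 3 nuclear members called in the comparisons below in the fit without the replicate number as a block. The UQCR11 and NDUFB4 calls were lost when some single libraries were left out, as given below. Sequences are the 250 bases before the RefSeq gene start in GRCh38.p14, 5′ to 3′ on the strand of the gene. Capitals mark the letters CCGGAAG (bound by ETS family factors such as GABP), or GCGCA and GCGC parted by 1 base of any kind (bound by nuclear respiratory factor 1, NRF1), each searched on both strands.
NDUFAF4: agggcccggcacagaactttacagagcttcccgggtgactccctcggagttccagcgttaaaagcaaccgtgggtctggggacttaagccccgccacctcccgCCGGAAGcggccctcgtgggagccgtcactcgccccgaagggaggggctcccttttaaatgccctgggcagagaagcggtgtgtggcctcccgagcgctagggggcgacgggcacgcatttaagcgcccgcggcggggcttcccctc
UQCR11: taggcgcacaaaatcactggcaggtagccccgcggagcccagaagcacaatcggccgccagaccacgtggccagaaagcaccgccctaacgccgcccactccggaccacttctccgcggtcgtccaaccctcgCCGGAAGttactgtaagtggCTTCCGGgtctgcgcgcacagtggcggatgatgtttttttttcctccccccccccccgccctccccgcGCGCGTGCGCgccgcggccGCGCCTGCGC
NDUFB4: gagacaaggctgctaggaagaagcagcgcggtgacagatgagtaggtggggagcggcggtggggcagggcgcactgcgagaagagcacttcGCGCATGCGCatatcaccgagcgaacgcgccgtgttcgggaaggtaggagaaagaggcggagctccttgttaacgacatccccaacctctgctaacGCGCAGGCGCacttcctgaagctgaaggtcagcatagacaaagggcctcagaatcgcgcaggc
The NDUFAF4 window lies at chr6:96897892-96898141 on the minus strand, the UQCR11 window at chr19:1605463-1605712 on the minus strand and the NDUFB4 window at chr3:120596086-120596335 on the plus strand. NDUFAF4 held 1 ETS match, UQCR11 held 2 ETS and 2 NRF1 matches, and NDUFB4 held 2 NRF1 matches. Of 93 nuclear members, 76 had a promoter in the RefSeq table. The NRF1 letters were found in 15 of 76 (19.7%), beside 5.53% of all 27305 promoters, and CCGGAAG in 19 (25.0%), beside 8.82%. The letters CCAAT were found in 22 (28.9%), beside 33.04%. Members had to reach a mean of 5 TPM and all promoters were taken whatever their level, so these shares compare genes of unlike levels. The androgen response element in its full palindromic form (AGAACA and TGTTCT parted by 3 bases) was in 0 of 76 and in 1 of all promoters in these windows. Androgen receptor sites often lie far from promoters, so a window of this size says little about them.

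The mtDNA-encoded messages were by far the more abundant. Mean levels over the 16 libraries ran from 376 TPM for MT-ND6 to 21792 TPM for MT-CO1, with a median of 12148 TPM over the 13, while the 93 nuclear members ran from 5.29 TPM (COX7B2) to 1125 TPM (NDUFB4), with a median of 215 TPM. The 3 core subunits of cytochrome oxidase came first, MT-CO1 at 21792, MT-CO2 at 17809 and MT-CO3 at 17469 TPM, next to the ATP synthase subunits MT-ATP8 at 17329 and MT-ATP6 at 12869 TPM. The complex I subunits MT-ND4 at 12741 and MT-ND4L at 12148 TPM followed, then MT-CYB, cytochrome b of complex III, at 8732 TPM, and then the complex I subunits MT-ND1 at 7143, MT-ND2 at 6651, MT-ND3 at 4471 and MT-ND5 at 2673 TPM. Neighbours in this order mostly overlapped over libraries. MT-CO2 ran from 14205 to 22720 TPM, MT-CO3 from 14910 to 20605 TPM and MT-ATP8 from 13946 to 27645 TPM, so their order was not resolved, whereas MT-ND6 (262 to 666 TPM) lay below every other mtDNA-encoded member in every library.

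Among the nuclear members, complex IV had the highest median of member means, 429 TPM, followed by complex V with 282, complex III with 242, complex I with 163 and complex II with 98.1 TPM. The assembly factors, which act on complexes as they form and do not stay in them, had a median of 30.02 TPM. After NDUFB4, a complex I accessory subunit, the highest were ATP5F1B, the catalytic beta subunit of ATP synthase, at 1067 TPM, and COX7C, a small cytochrome oxidase subunit, at 829 TPM. The highest library exceeded the lowest by a median of 1.60 times for mtDNA-encoded and 1.54 times for nuclear members.

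The summed mtDNA-encoded level in TPM was 136425 and 128693 in VEH, 189473 and 122917 in DHT, 144263 and 136015 in BIC.VEH, 172530 and 137810 in BIC.DHT, 143970 and 133381 in ENZ.VEH, 145653 and 137000 in ENZ.DHT, 132101 and 129132 in APA.VEH and 155410 and 130492 in APA.DHT (replicates 1 and 2). DHT held both the highest and the lowest of the 16 sums, so the groups overlapped, and replicate 1 lay above replicate 2 in 8 of 8 groups. The summed nuclear level in TPM was 24535 and 24746 in VEH, 22089 and 25231 in DHT, 24059 and 24014 in BIC.VEH, 23731 and 24640 in BIC.DHT, 23659 and 24371 in ENZ.VEH, 29097 and 24801 in ENZ.DHT, 25552 and 24679 in APA.VEH and 29640 and 24708 in APA.DHT. Here 14 libraries lay between 22089 and 25552 TPM, and replicate 1 of ENZ.DHT and of APA.DHT lay above them. In shares of the column total, the mtDNA-encoded members took 12.5% to 19.3% and the nuclear members 2.25% to 3.04%. The ratio of the sums was 5.56 and 5.20 in VEH and 8.58 and 4.87 in DHT, the highest and the lowest of all 16, and 5.01 to 7.27 in the 12 libraries of the antagonist groups. TPM is scaled to a fixed total, so a higher share of mtDNA-encoded RNA leaves a lower total for the other genes together. Single genes need not be lower. Replicate 1 of APA.DHT was high in both sums. In bulk RNA, fewer cells of a kind and less RNA per cell cannot be told apart.

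**Figure D1:**
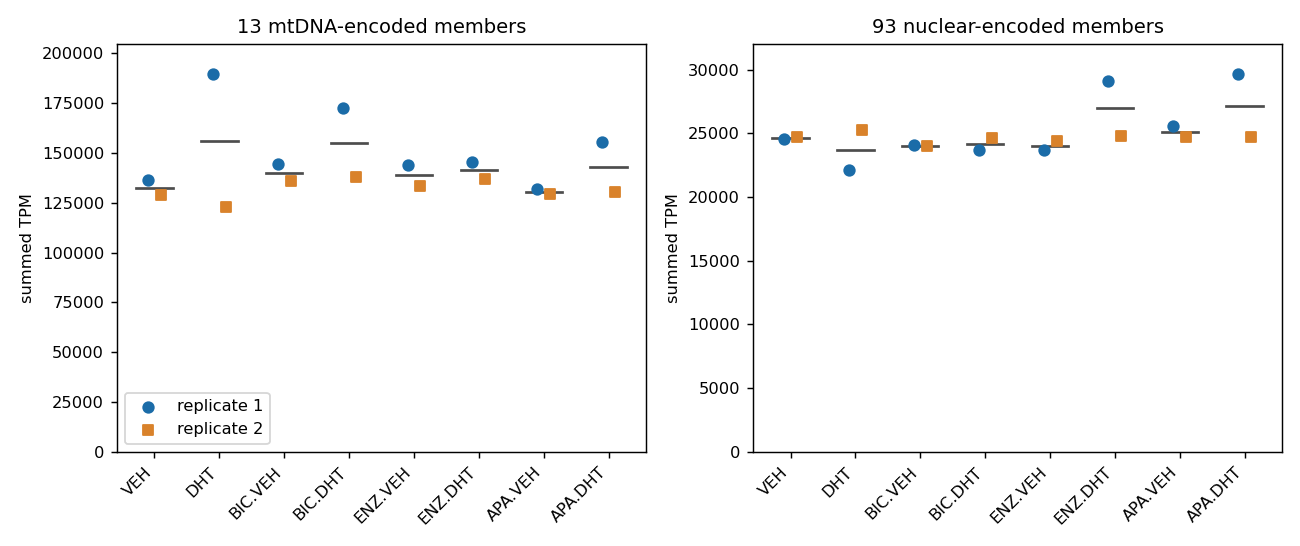
Summed level of the 13 mtDNA-encoded members and of the 93 nuclear members, in TPM, in each library of the 8 groups. Points are libraries (replicate 1 and replicate 2) and horizontal lines are group means. Replicate 1 of DHT is highest for mtDNA at 189473 TPM and lowest for the nucleus at 22089 TPM, and replicate 1 of ENZ.DHT and of APA.DHT stand above the others for the nucleus at 29097 and 29640 TPM.

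Both libraries that stood apart in the nuclear sum also stood apart within mtDNA-encoded transcripts. MT-ND4L and MT-ND4 are read from one shared message and overlap by 7 bases, as MT-ATP8 and MT-ATP6 overlap by 46, so their ratios compare levels within 1 transcript. The MT-ND4L to MT-ND4 ratio was 0.606 in replicate 1 of ENZ.DHT and 0.639 in replicate 1 of APA.DHT, against 0.869 to 1.12 in the other 14 libraries. The MT-ATP8 to MT-ATP6 ratio was 0.952 and 1.03 in the same libraries, against 1.21 to 1.63. Replicate 1 had the lower value of both ratios in all 8 groups. Of the 93 nuclear members, 44 lay above all other 14 libraries in both of these libraries and 9 lay below. The 44 held 10 of 13 complex IV, 6 of 9 complex III, 16 of 37 complex I, 9 of 18 complex V, 0 of 4 complex II and 3 of 12 assembly members. MT-RNR1, the small mitochondrial ribosomal RNA, stood at 12602 TPM in replicate 1 of ENZ.DHT and at no more than 7527 TPM in the other libraries. The part of RNA quality or library making in these values was not tested. For the comparisons that use these libraries, the counts of members called and the values of MT-ND6 and NDUFAF4 are also given without them.

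**Figure D2:**
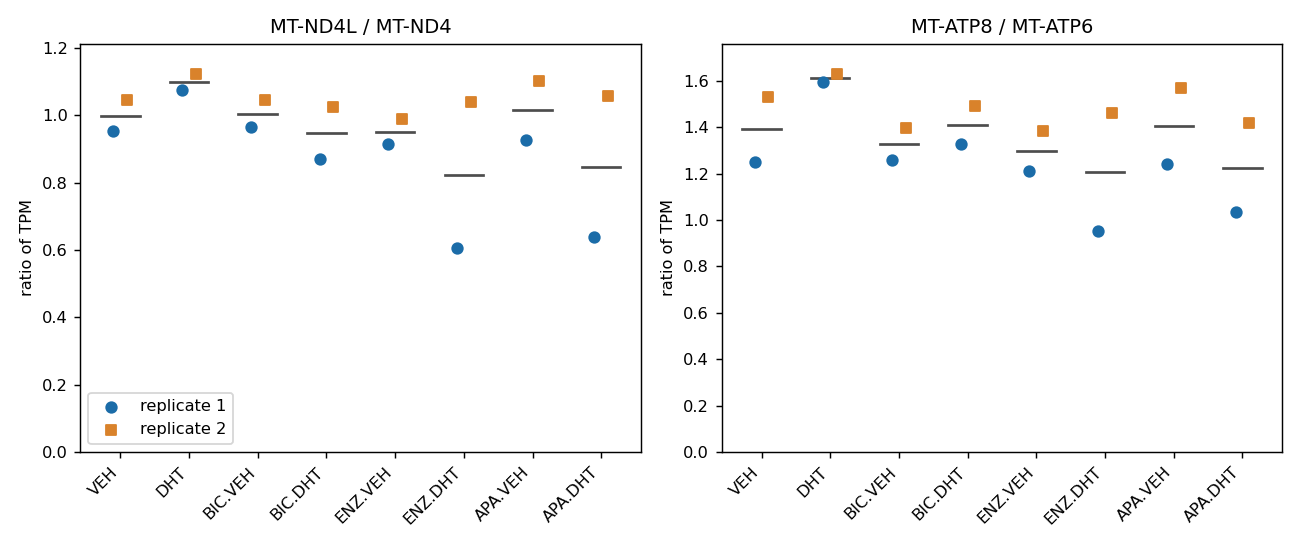
Ratio of MT-ND4L to MT-ND4 and of MT-ATP8 to MT-ATP6, each pair read from one shared transcript, in each library of the 8 groups. Points are libraries by replicate and horizontal lines are group means. The replicate 1 libraries of ENZ.DHT (0.606 and 0.952) and APA.DHT (0.639 and 1.03) are the lowest in both ratios.

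The markers fit the labelled cell line. Summed TPM of 8 prostate luminal and LNCaP markers was 2392 to 3269 outside the DHT group and 5665 to 7841 within it. Of 4 blood markers, CD3E and HBB were at 0 in every library and CD68 alone reached 1 TPM (sums 0.93 to 12.1), and 3 endothelial markers summed to 0.62 to 1.90. Of 3 fibroblast markers COL1A1 alone reached 1 TPM, and the list summed to 11.4 and 15.6 in DHT against 17.1 to 32.6 elsewhere. Its part in the results was not tested.

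Few respiratory chain messages were called with DHT alone, and the count rose with the replicate number as a block. With 2 libraries a group, a member not called is not shown to be unchanged. In DHT against VEH, 2 of 106 members passed the test, beside 10.3% of all 16636 genes tested, 3.63% higher and 6.64% lower (limma on log2(TPM + 1), Benjamini-Hochberg adjusted p below 0.05). The mtDNA-encoded MT-ND6 rose and the nuclear NDUFAF4 fell. With the replicate number as a block, 10 members were called, beside 27.4% of all genes. The members also moved little in size. On the log2 scale 0 of 106 differed by 1 or more, beside 6.91% of all genes, and 3 differed by 0.5 or more, beside 26.1%. Members had to reach a mean of 5 TPM and all genes only 1 TPM in 2 libraries, so these shares compare genes of unlike levels.

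MT-ND6 encodes a membrane subunit of complex I and is the only protein gene on the light strand of mtDNA, at positions 14149 to 14673, next to MT-ND5 on the other strand. Its level in TPM was 336 and 358 in VEH, 666 and 549 in DHT, 333 and 343 in BIC.VEH, 429.5 and 438 in BIC.DHT, 297 and 337 in ENZ.VEH, 262 and 364 in ENZ.DHT, 279 and 363 in APA.VEH and 269.5 and 391 in APA.DHT. Both DHT libraries lay above all 14 others. The log2 fold change in DHT against VEH was 0.80 with an SE of 0.21 (limma adjusted p = 0.031, and 0.0050 with the block). The call rested on all 4 libraries of the pair, since leaving out any one gave adjusted p = 0.0728 to 0.173. It was also lost without the filter on low values (adjusted p = 0.0632) and in limma fitted to the 4 libraries alone (0.0837). As a share of the mtDNA-encoded sum, which does not move with the total, MT-ND6 took 0.246 and 0.278% in VEH, 0.352 and 0.446% in DHT and 0.173% to 0.318% in the antagonist groups, so both DHT libraries were highest on this scale too. The MT-ND6 to MT-CYB ratio was 0.0400 and 0.0457 in VEH and 0.0575 and 0.0727 in DHT. The library kit keeps strand, but whether the counting used it is not given in the sources used here, and without it reads of MT-ND6 and of the opposite strand cannot be told apart. The MT-ND6 message is also known to lack a poly(A) tail, so selection on poly(A) captures it poorly.

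The other 12 mtDNA-encoded members did not pass. All 13 had a positive mean log2 fold change with a median of 0.23, while the replicate pairs differed. From VEH to DHT, all 13 were higher in the replicate 1 pair (median 0.46) and 5 of 13 in the replicate 2 pair (median -0.05). By complex the median of the means was 0.30 for the 7 complex I members, 0.29 for the 2 complex V members, 0.21 for MT-CYB and 0.10 for the 3 complex IV members. MT-ND3 stood at 3826 and 4062 TPM in VEH and 5579 and 4215 in DHT, and MT-ND4L at 11819 and 11863 TPM in VEH and 18374 and 12010 in DHT. With MT-ND6 these were the 3 of 13 whose groups did not overlap, all higher in DHT, beside 20.0% of all genes. Their log2 fold changes were 0.30 and 0.33 (limma adjusted p = 0.271 and 0.447). MT-CO1 stood at 21708 and 19342 TPM in VEH and 25505 and 17125 in DHT, with the DHT libraries on either side of VEH. The log2 fold changes were 0.03 for MT-CO1, 0.13 for MT-CO2, 0.10 for MT-CO3, 0.18 for MT-ATP6, 0.40 for MT-ATP8, 0.23 for MT-ND1, 0.34 for MT-ND2, 0.19 for MT-ND4 and 0.24 for MT-ND5, each with an SE near the median of 0.23.

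**Figure D3:**
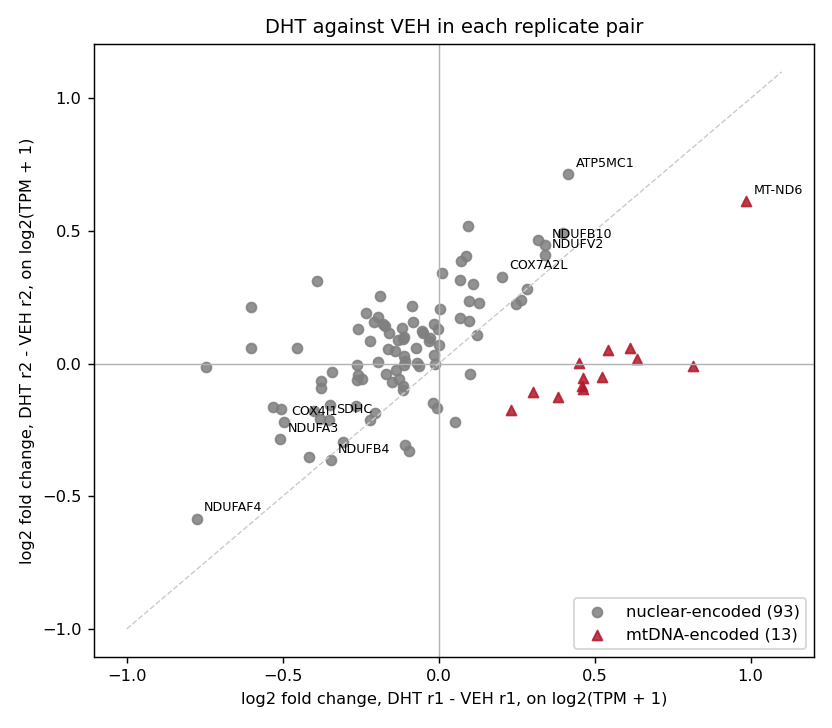
Log2 fold change of each member in DHT against VEH, in the replicate 1 pair (horizontal axis) and the replicate 2 pair (vertical axis), with mtDNA-encoded and nuclear members marked apart. In DHT against VEH the 13 mtDNA-encoded members have a median of 0.46 in the first pair and -0.05 in the second.

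NDUFAF4, an assembly factor of complex I, lies on chromosome 6 at 96889315 to 96897891 (GRCh38.p14). Its level in TPM was 61.4 and 65.8 in VEH, 35.4 and 43.6 in DHT, 50.6 and 56.9 in BIC.VEH, 48.0 and 48.6 in BIC.DHT, 57.3 and 56.3 in ENZ.VEH, 64.1 and 64.0 in ENZ.DHT, 69.0 and 69.8 in APA.VEH and 67.5 and 66.4 in APA.DHT. Both DHT libraries lay below all 14 others, and the group did not overlap with VEH. The log2 fold change in DHT against VEH was -0.68 with an SE of 0.12 (limma adjusted p = 0.0040, and 0.00047 with the block). The call held with each of the 4 libraries left out (adjusted p = 0.00716 to 0.04), and was lost in limma fitted to the 4 libraries alone (0.0941). Its processed pseudogene NDUFAF4P3 had a mean of 0.318 TPM. The other 7 NDUFAF members were called in neither fit. NDUFAF4 was lower in DHT. The 37 nuclear subunits of the complex it helps to build had a median log2 fold change of -0.05 (13 positive). The 7 mtDNA-encoded subunits of that complex had a median of 0.30 (7 positive), with replicate pairs of mtDNA-encoded members that differed, as given above.

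**Figure D4:**
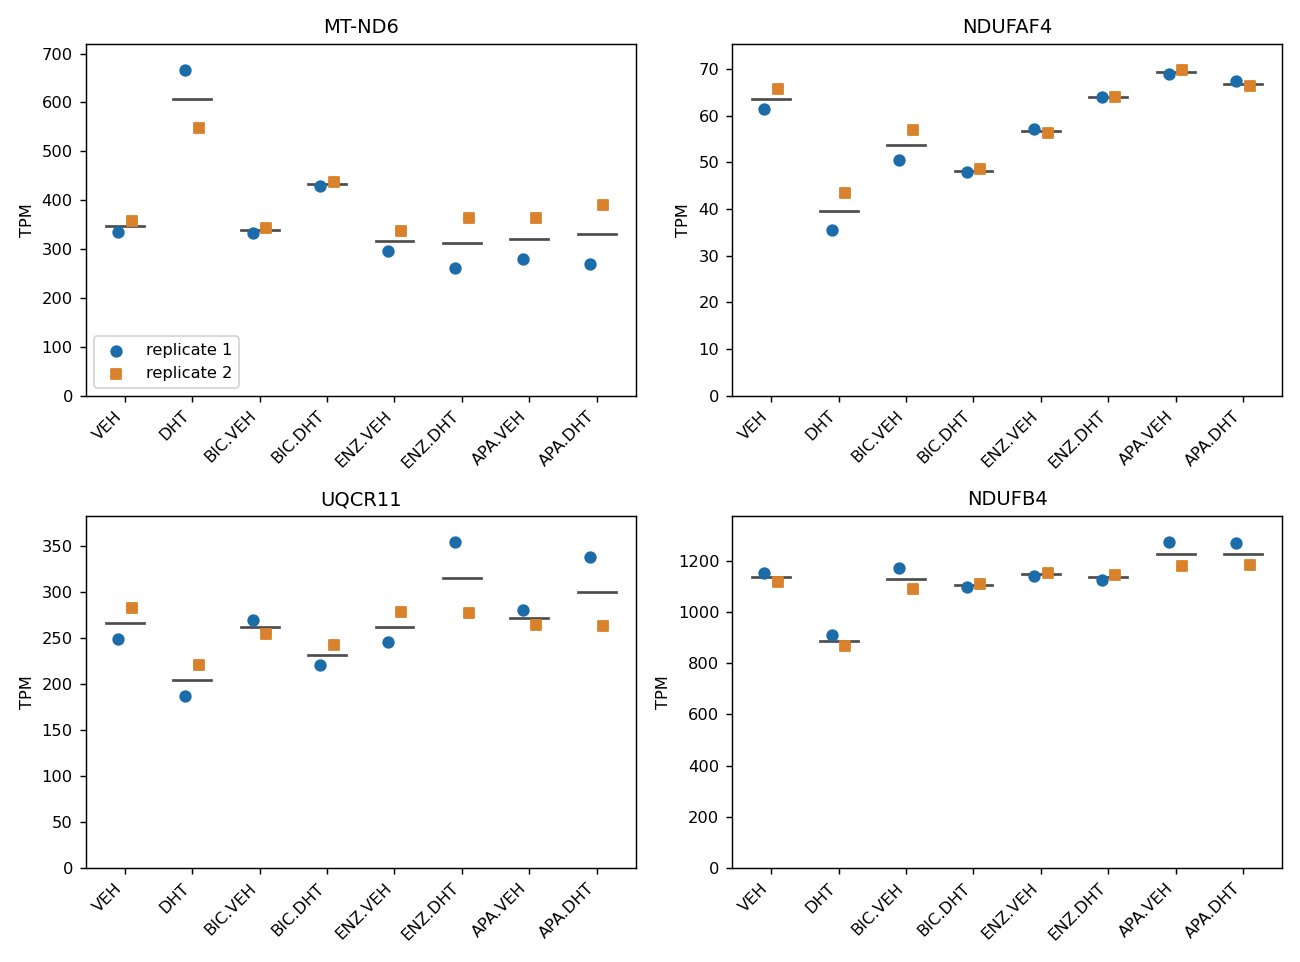
TPM of the members called in the fit without the block (MT-ND6, NDUFAF4, UQCR11 and NDUFB4) in each library of the 8 groups. Points are libraries by replicate and horizontal lines are group means. The DHT libraries are the highest for MT-ND6 (666 and 549 TPM) and the lowest for NDUFAF4 (35.4 and 43.6 TPM).

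The nuclear members as a whole had a median log2 fold change of -0.04 in DHT against VEH, beside -0.10 for all genes tested, with 34 of 93 positive. The replicate 1 pair gave -0.11 and the replicate 2 pair 0.06, and the sign of the median turned with median-ratio scaling (0.083). Replicates of DHT and VEH did not overlap for 13 members that were higher and 19 that were lower, beside 20.0% and 36.4% of all genes. Medians by complex were -0.05 for complex I, -0.02 for complex II, 0.01 for complex III, -0.16 for complex IV, -0.01 for complex V and -0.02 for assembly factors. The median SE of a nuclear member was 0.17, against 0.23 for mtDNA-encoded members and 0.22 for all genes.

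With the block, 4 members were called higher in DHT beside MT-ND6, against 10.6% of all genes. ATP5MC1, 1 of 3 genes for the identical c subunit of the ATP synthase rotor, stood at 184 and 212 TPM in VEH and 246 and 349 in DHT, and both DHT libraries lay above VEH. Its log2 fold change was 0.57 (adjusted p = 0.081, and 0.0016 with the block), the highest among the nuclear members, while ATP5MC2 and ATP5MC3 had 0.03 and 0.17. NDUFB10, a membrane arm subunit of complex I, stood at 195 and 229 TPM in VEH and 247 and 312 in DHT, and NDUFV2, an iron-sulfur subunit of its NADH-binding module, at 287 and 320.2 TPM in VEH and 364 and 426 in DHT. For both genes the DHT libraries lay above both VEH libraries. Their log2 fold changes were 0.39 (adjusted p = 0.173, and 0.012 with the block) and 0.37 (adjusted p = 0.078, and 0.024 with the block). COX7A2L, which helps to join complexes III and IV into supercomplexes, had 0.27 (adjusted p = 0.333, and 0.045 with the block).

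With the block, 4 members were called lower beside NDUFAF4, against 16.8% of all genes. NDUFB4 stood at 1155 and 1117 TPM in VEH and 909 and 868 in DHT, and the DHT libraries were the lowest of all 16. Its log2 fold change was -0.35 (adjusted p = 0.055, and 0.0034 with the block). COX4I1, the subunit of complex IV through which ATP and ADP act on it, stood at 791 and 737 TPM in VEH and 560.2 and 633 in DHT, and NDUFA3, a small complex I subunit, at 298 and 236 TPM in VEH and 209 and 193 in DHT. Groups did not overlap for either gene. Their log2 fold changes were -0.36 (adjusted p = 0.129, and 0.022 with the block) and -0.40 (adjusted p = 0.329, and 0.014 with the block). SDHC, a membrane anchor of complex II, had 301 and 309 TPM in VEH and 235 and 266 in DHT, with a log2 fold change of -0.28 (adjusted p = 0.181, and 0.047 with the block). These 8 members were chosen for the block call after their values were seen. With both libraries that stood apart left out, 4 members were called without the block (NDUFV2 higher and NDUFB4 lower, next to MT-ND6 and NDUFAF4), beside 15.8% of all genes in the same fit, and 23 with it, beside 41.2%.

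The core and catalytic subunits fixed for naming did not pass in DHT against VEH without the block. The complex I core subunits NDUFS1 and NDUFV1 had log2 fold changes of 0.12 and -0.15, and NDUFA9, an accessory subunit at the junction of its arms, had 0.07. In complex II the flavoprotein SDHA had -0.01, the iron-sulfur subunit SDHB -0.04 and the anchor SDHD 0.03. The complex III core proteins UQCRC1 and UQCRC2 had -0.05 and 0.03, and the Rieske protein UQCRFS1 had 0.21. In complex IV, COX5B had -0.38 and COX6C -0.30. The alpha and beta subunits of the ATP synthase, ATP5F1A and ATP5F1B, had -0.11 and -0.01, and its inhibitor ATP5IF1 had -0.22. ATP5F1B stood at 1126 and 1107 TPM in VEH and 1040 and 1180 in DHT, a log2 interval of -0.30 to 0.27 around -0.01.

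**Figure D5:**
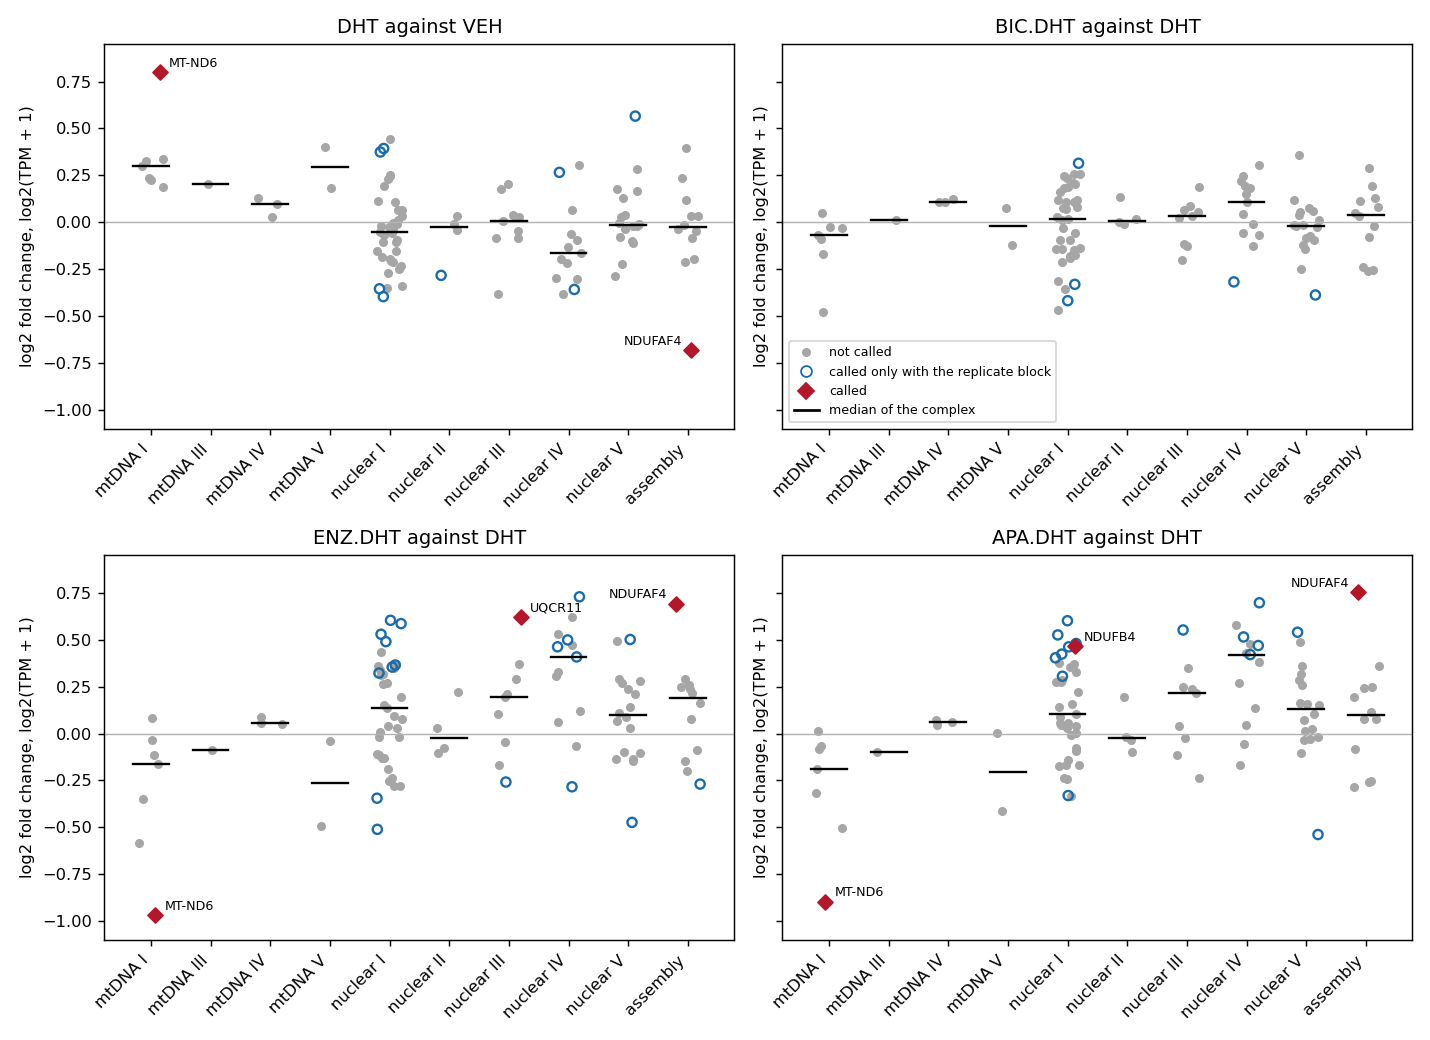
Log2 fold change of each member, grouped by genome and complex, in DHT against VEH and in the 3 comparisons of an antagonist with DHT alone. Points are members, horizontal lines are medians, open circles are members called only with the block, and diamonds with names are members called without it. Nuclear complex IV has a median of -0.16 in DHT against VEH, 0.41 in ENZ.DHT against DHT and 0.42 in APA.DHT against DHT. Its summed TPM in replicates 1 and 2 was 4663 and 5330 in DHT, 7089 and 5536 in ENZ.DHT and 7106 and 5415 in APA.DHT. The medians therefore rest largely on the replicate 1 libraries.

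Each antagonist was then compared with DHT alone in cells that all received DHT. These 3 comparisons use the same 2 DHT libraries as DHT against VEH, so an opposite sign between them follows in part from the shared samples, and only each comparison's own values are given. Enzalutamide and apalutamide are close analogs, apalutamide holding a pyridine ring in place of a benzene ring and a cyclobutane ring in place of a pair of methyl groups, while bicalutamide belongs to another structural class.

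In BIC.DHT against DHT, 0 of 106 members were called by limma, beside 3.13% of all genes (1.45% higher and 1.68% lower), and 7 had an unadjusted p below 0.05. With the block 5 were called, beside 13.3% of all genes (6.5% higher and 6.82% lower). The 2 members furthest above 0 were ATP5PO, the stalk subunit OSCP of the ATP synthase, at 0.36 and NDUFB4 at 0.31, and those furthest below were MT-ND6 at -0.48 and the complex I subunit NDUFC1 at -0.47 (limma adjusted p = 0.555, 0.156, 0.297 and 0.410). MT-ND6 at 429.5 and 438 TPM lay below both DHT libraries and above both BIC.VEH libraries. NDUFAF4 at 48.0 and 48.6 TPM lay above both DHT libraries and below both VEH libraries, with a log2 fold change of 0.29 (adjusted p = 0.254, and 0.069 with the block). The members called with the block were ATP5MC1 (-0.39, adjusted p = 0.024), COX7A2L (-0.32, 0.037), NDUFB10 (-0.33, 0.045) and NDUFC2 (-0.42, 0.038), which were lower, and NDUFB4 (0.014), which was higher. Leaving out the libraries that stood apart, which belong to neither group but enter the shared estimate of the spread, gave 0 members without the block, beside 5.51% of all genes, and 17 with it, beside 25.6%. Median log2 fold changes were -0.02 for mtDNA-encoded and 0.02 for nuclear members.

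In ENZ.DHT against DHT, MT-ND6 fell and NDUFAF4 and UQCR11 rose, 3 of 106 members beside 9.65% of all genes (4.74% higher and 4.91% lower). MT-ND6 stood at 262 and 364 TPM in ENZ.DHT, below both DHT libraries, one of them below both ENZ.VEH libraries and the other above, with a log2 fold change of -0.97 and an SE of 0.21 (limma adjusted p = 0.015). NDUFAF4 stood at 64.1 and 64.0 TPM, above both DHT libraries and both ENZ.VEH libraries, with 0.69 and an SE of 0.12 (adjusted p = 0.0045). UQCR11, the smallest subunit of complex III, lies on chromosome 19 at 1597169 to 1605462. Its level in TPM was 249 and 283 in VEH, 187 and 221 in DHT, 269.9 and 254 in BIC.VEH, 221 and 242 in BIC.DHT, 245 and 279 in ENZ.VEH, 354 and 277 in ENZ.DHT, 280.1 and 265 in APA.VEH and 338 and 263 in APA.DHT, with replicate 1 of ENZ.DHT the highest library and replicate 1 of DHT the lowest. Its log2 fold change was 0.62 with an SE of 0.16 (limma adjusted p = 0.035, and 0.011 with the block), against -0.38 in DHT against VEH (adjusted p = 0.163). With both libraries that stood apart left out, NDUFAF4 (0.69, limma adjusted p = 0.022) and MT-ND6 (-0.73, 0.049) were still called and UQCR11 was not (0.45, 0.124), beside 5.87% of all genes. With one library left out at a time, the NDUFAF4 call held in each of 4 cases (limma adjusted p = 0.00689 to 0.0416). The MT-ND6 call was lost without replicate 1 of DHT or replicate 1 of ENZ.DHT (range 0.0126 to 0.129), and the UQCR11 call was lost without either DHT library or replicate 1 of ENZ.DHT (0.024 to 0.242) and without the filter on low values (0.0601). In limma fitted to these 4 libraries alone, none of the 3 was called (0.193 to 0.265).

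The median of the nuclear members lay above 0 in 1 replicate pair of ENZ.DHT against DHT and not in the other. The median log2 fold change was 0.15, with 63 of 93 positive, beside -0.01 for all genes. The replicate 1 pair gave 0.37 and the replicate 2 pair -0.05. The mtDNA-encoded members gave a median of -0.09, with -0.34 and 0.15 in the pairs. Complex IV had the highest nuclear median, 0.41 with 11 of 13 positive, then complex III with 0.20, assembly factors with 0.19, complex I with 0.14, complex V with 0.10 and complex II with -0.02. The summed nuclear complex IV level in replicates 1 and 2 was 4663 and 5330 TPM in DHT and 7089 and 5536 in ENZ.DHT. It was 5737 and 5487 TPM in VEH, so the difference lay mainly in the replicate 1 pair. NDUFA4, a subunit now assigned to complex IV, stood at 219 and 291 TPM in DHT and 525 and 335 in ENZ.DHT. Its log2 fold change of 0.73 was the highest of all members (limma adjusted p = 0.082, and 0.038 with the block), made up of 1.26 in the replicate 1 pair and 0.20 in the other. Leaving out each replicate in turn moved the median of the nuclear members from 0.01 to 0.26. The replicate 1 libraries of this pair are the one with the low MT-ND4L to MT-ND4 ratio and the one with the highest mtDNA-encoded sum.

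With the block 21 members were called in ENZ.DHT against DHT, beside 29.2% of all genes (13.3% higher and 15.9% lower). The 14 higher members held 7 complex I subunits (NDUFA1, NDUFA3, NDUFA13, NDUFB1, NDUFB2, NDUFB4 and NDUFB8), 4 complex IV subunits (COX4I1, COX6C, COX7C and NDUFA4), UQCR11, ATP5PO and NDUFAF4. COX4I1 stood at 560.2 and 633 TPM in DHT and 883 and 762 in ENZ.DHT, with a log2 fold change of 0.46 (adjusted p = 0.058, and 0.0060 with the block). The 7 lower members were MT-ND6, ATP5MC1, COX7A2L, NDUFAF1, NDUFB10, NDUFS1 and UQCRFS1. NDUFS1 stood at 85.2 and 97.9 TPM in DHT and 49.3 and 82.5 in ENZ.DHT, a log2 fold change of -0.51 (adjusted p = 0.215, and 0.026 with the block). UQCRFS1 stood at 58.7 and 70.6 TPM in DHT and 52.0 and 55.3 in ENZ.DHT, a log2 fold change of -0.26 (adjusted p = 0.164, and 0.045 with the block). In the first gene replicate 1 of ENZ.DHT was far below the other library, and in both genes the groups did not overlap. With the libraries that stood apart left out, 19 were called with the block, beside 27.7% of all genes.

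In APA.DHT against DHT, MT-ND6 fell and NDUFAF4 and NDUFB4 rose, 3 of 106 members beside 8.36% of all genes (4.25% higher and 4.11% lower). MT-ND6 stood at 269.5 and 391 TPM in APA.DHT, with both libraries below DHT a log2 fold change of -0.90 and an SE of 0.21 (limma adjusted p = 0.022). NDUFAF4 stood at 67.5 and 66.4 TPM, with both libraries above DHT a log2 fold change of 0.75 and an SE of 0.12 (adjusted p = 0.0029). NDUFB4 lies on chromosome 3 at 120596336 to 120602507 and is a small subunit of the complex I membrane arm. Its level in TPM was 1155 and 1117 in VEH, 909 and 868 in DHT, 1173 and 1089 in BIC.VEH, 1100 and 1109 in BIC.DHT, 1141 and 1155 in ENZ.VEH, 1126 and 1145 in ENZ.DHT, 1273 and 1182 in APA.VEH and 1269 and 1183 in APA.DHT, and the APA.DHT libraries overlapped with APA.VEH and not with DHT. Its log2 fold change was 0.46 with an SE of 0.10 (limma adjusted p = 0.020, and 0.00075 with the block). Its processed pseudogene NDUFB4P12 was listed at 40.4 and 41.5 TPM in DHT and 64.8 and 62.4 in APA.DHT, and how reads were shared between these near-identical copies is uncertain.

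With both libraries that stood apart left out, NDUFAF4 alone was still called in APA.DHT against DHT (0.74, limma adjusted p = 0.015), while MT-ND6 gave -0.63 (0.072) and NDUFB4 0.41 (0.078), beside 7.05% of all genes called. The NDUFAF4 call also held with each of the 4 libraries left out (0.00493 to 0.0284), and the MT-ND6 and NDUFB4 calls were lost without either DHT library or replicate 1 of APA.DHT (up to 0.15 and 0.118). In limma fitted to these 4 libraries alone, none of the 3 was called (0.218 to 0.332). The nuclear median was 0.14 with 65 of 93 positive, beside 0.00 for all genes, with 0.39 in the replicate 1 pair and -0.10 in the replicate 2 pair. Without the libraries that stood apart it was 0.040. The mtDNA-encoded median was -0.08. Complex IV had a median of 0.42 and complex II -0.03. The summed nuclear complex IV level in replicates 1 and 2 was 4663 and 5330 TPM in DHT and 7106 and 5415 in APA.DHT. With the block 18 members were called, beside 27.3% of all genes (13.2% higher and 14.1% lower), of which 15 were higher and 3 lower (ATP5MC1, MT-ND6 and NDUFB10). Those higher held 8 complex I subunits, 4 complex IV subunits (COX4I1, COX6C, COX7C and NDUFA4), UQCR11, ATP5PO and NDUFAF4. ATP5MC1 stood at 196 and 207 TPM in APA.DHT, below both DHT libraries, a log2 fold change of -0.54 (adjusted p = 0.103, and 0.0023 with the block). With the libraries that stood apart left out, 16 were called with the block, beside 29.5% of all genes.

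Without DHT the antagonists gave no member calls. Against VEH, limma called 0 of 106 members in BIC.VEH, ENZ.VEH and APA.VEH, with 0 at an unadjusted p below 0.05 in each, beside 0.0%, 0.0% and 0.00601% of all genes. With the block it also called 0, beside 0.018%, 0.0% and 0.012%, with 1 unadjusted p below 0.05 in each. MT-ND6 had log2 fold changes of -0.04, -0.13 and -0.12, and NDUFAF4 had -0.24, -0.16 and 0.13. The intervals of MT-ND6 reached from -0.58 to 0.32 in the case of enzalutamide, so a change of moderate size was not detectable with 2 libraries a group.

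DHT was next compared with vehicle within each antagonist. Under bicalutamide, enzalutamide and apalutamide limma called 0 of 106 members each, without and with the block, beside 0.0%, 0.00601% and 0.00601% of all genes without it and 0.0%, 0.00601% and 0.024% with it. At an unadjusted p below 0.05 there were 0, 1 and 0 members without the block and 0, 8 and 4 with it. MT-ND6 had a log2 fold change of 0.36 under bicalutamide (interval -0.09 to 0.81), -0.03 under enzalutamide and 0.03 under apalutamide. NDUFAF4 had -0.15, 0.17 and -0.05. Without the libraries that stood apart limma also called 0 members under each antagonist, without and with the block. MT-ND6 then gave 0.20 under enzalutamide, with its sign turned, and 0.30 under apalutamide, and NDUFAF4 gave 0.17 and -0.063.

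Whether an antagonist changed the response to DHT was tested as an interaction. For enzalutamide 1 member was called, NDUFAF4, with a difference of 0.85 on the log2 scale with an SE of 0.16 (limma adjusted p = 0.027, interval 0.49 to 1.21), beside 1.63% of all genes. The log2 fold change from vehicle to DHT was -0.68 without and 0.17 with enzalutamide. The call was lost when any one of 7 of the 8 libraries was left out (adjusted p = 0.0596 to 0.119), was held without replicate 2 of DHT (0.0255) and was lost without the libraries that stood apart (0.0507) and in limma fitted to the 8 libraries alone (0.223). With the block 3 members were called, beside 9.91%: NDUFAF4 (0.0034), MT-ND6 with -0.83 (0.049) and NDUFA3 with 0.50 (0.049). For bicalutamide limma called 0 members, beside 0.986%, with 1 at an unadjusted p below 0.05, and 1 with the block, NDUFAF4 (0.53, adjusted p = 0.041), beside 6.39%. For apalutamide it called 0, beside 1.42%, with 4 at an unadjusted p below 0.05. With the block it called 3, beside 10.1%: NDUFAF4 (0.63, 0.016), NDUFB4 (0.35, 0.044) and ATP5MC1 (-0.51, 0.038). Without the libraries that stood apart limma called 0 members in each interaction, beside 2.18% of all genes for bicalutamide, 1.92% for enzalutamide and 1.81% for apalutamide. With the block as well it called 7, 5 and 7, beside 16.1%, 15.1% and 16.9%.

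The antagonists were compared with each other at 10 µM with DHT, in 3 pairs. Limma called 0 of 106 members in ENZ.DHT against BIC.DHT, APA.DHT against BIC.DHT and APA.DHT against ENZ.DHT, beside 0.00601%, 0.0% and 0.00601% of all genes, with 4, 2 and 0 members at an unadjusted p below 0.05. With the block it also called 0, beside 0.012%, 0.0541% and 0.00601%, with 9, 8 and 0 members. MT-ND6 differed by -0.49 between enzalutamide and bicalutamide (interval -0.94 to -0.04) and by -0.42 between apalutamide and bicalutamide (-0.87 to 0.03). NDUFAF4 differed by 0.40 (0.15 to 0.65) and 0.46 (0.21 to 0.72), with both libraries of either drug above both of BIC.DHT, and limma adjusted p = 0.930 and 1. Between the analogs apalutamide and enzalutamide no member differed by more than 0.18 (NDUFS1) or less than -0.15 (UQCRHL), and all 106 intervals lay between -0.86 and 0.99. Their difference was 0.07 for MT-ND6 (-0.38 to 0.52) and 0.06 for NDUFAF4 (-0.19 to 0.32). Without the libraries that stood apart limma called 0 members in each pair, without and with the block. MT-ND6 then differed by -0.25 between enzalutamide and bicalutamide, by -0.15 between apalutamide and bicalutamide and by 0.10 between the analogs, and leaving out single libraries moved these differences from -0.72 to -0.25, from -0.68 to -0.15 and from -0.20 to 0.34. The differences of NDUFAF4 from bicalutamide were then 0.40 and 0.45, and the analogs' members lay between -0.24 (SDHAF4) and 0.21 (NDUFB5). The intervals limit a difference and do not show that the drugs act alike.

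Where a subunit has tissue-specific copies, one of them held nearly all of the signal. COX4I1 had a mean of 756 TPM and COX4I2 of 0.0344 TPM, COX6B1 653 and the testis form COX6B2 0.139 TPM, and COX8A 648 and COX8C 0.0369 TPM. The muscle forms COX6A2 and COX7A1 were listed at 0 in all libraries, where COX6A1 and COX7A2 had 711 and 459.8 TPM and COX7A2L 64.3 TPM. NDUFA4 had 335 TPM and NDUFA4L2, a gene known to respond to hypoxia, ran from 2.74 to 8.24 TPM. Of the c subunit genes ATP5MC1 had 215, ATP5MC2 477 and ATP5MC3 257 TPM. RSEM divides reads that match several genes by a model, so levels are uncertain where processed pseudogenes were listed, with means of 89.0 TPM for COX6A1P2, 80.5 for COX7CP1, 52.1 for NDUFB4P12, 24.1 for NDUFV2P1 and 23.7 for ATP5MDP1. In RefSeq, NDUFA3 overlapped TFPT, NDUFV2 overlapped NDUFV2-AS1, NDUFC2 overlapped NDUFC2-KCTD14 and THRSP, and ATP5MC1 and NDUFS1 overlapped other annotated genes, and their values may hold reads of these. The 22 mitochondrial tRNA rows were at 0 in all libraries.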

How the data were processed

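Gene expression was measured by RNA-seq in 16 libraries of 8 groups with 2 replicates each, grouped by the sample labels. The authors checked reads with FastQC (0.11.9), trimmed them with Trim Galore (0.6.5), aligned them to GRCh38 with STAR (2.7.2b) and estimated gene levels with RSEM (1.3.3), per the labels and the submitters' processing notes. The deposited values are TPM per gene symbol, without pooling, and 0 columns belonged to other samples. TPM is scaled to a fixed total per library, but the deposited columns summed to 976190 to 983114 TPM, and why is not given. The lowest totals were those of the libraries that stood apart, 976190 in replicate 1 of APA.DHT and 978134 in replicate 1 of ENZ.DHT. The other libraries had at least 980469 TPM. The rule's drop of symbols ending in P or P and digits was applied to nuclear symbols, since MT-ATP6 and MT-ATP8 match it by their letters alone. Members and gene lists were chosen with earlier results of these data known.

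From the deposited TPM, log2(TPM + 1) was computed for the 16636 genes at 1 TPM or more in at least 2 libraries, so fold changes of low genes are understated. Group means were fitted to all 16 libraries with limma 3.58.1 (trend option, R 4.3.3; tables were made in Python 3.11.15), and a gene was called at a Benjamini-Hochberg adjusted p below 0.05 over all genes of the contrast. Intervals are 95% limma intervals. Sums, ratios and medians over members carry no test. Scripts were tested on simulated data.

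Replicate numbers were checked for pairing. Deviations from the group means correlated above 0.1 between same-numbered libraries in 28 of 28 pairs of groups (0.204 to 0.635, median 0.427), so values with the replicate number as a block are given beside the main ones where they change a call or a count.

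Named genes were all mtDNA-encoded members, 16 fixed nuclear members, up to 5 called members each way in DHT against VEH and 3 in each antagonist comparison (the 2 furthest from 0 where none was called), every member of a contrast with 5 or fewer calls, and paralog pairs. Alternatives were another pseudocount, filter and scaling, removal of MT- rows, fits to the compared groups alone, the block and leaving out each replicate. Sequences and positions are from RefSeq (GRCh38.p14). Sequences of mtDNA genes and proteins were not used here.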

Additional observations from a re-analysis of the deposited data

Results flagged for a closer look

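The response of NDUFAF4 to DHT differed between cells with and without enzalutamide by 0.851 on the log2 scale in the limma interaction test (adjusted p = 0.027). The gene was lower in DHT than in VEH in both replicate numbers, and ENZ.DHT against ENZ.VEH gave 0.17, which was not called (limma adjusted p = 0.844). The call on the difference was lost when any one of 7 of the 8 libraries was left out (adjusted p = 0.0596 to 0.119), without the libraries that stood apart (0.0507) and in limma fitted to the 8 libraries alone (0.223).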

How the results depend on the processing

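Of 665 alternative values of the counts, medians and sums, 574 stayed within 1.5 times the count or within the spread of the libraries, and of 1148 alternative values of single members 959 kept direction and call. Most counts had no member called in the main fit, and most single members were uncalled there. Staying uncalled was scored as unchanged, so these totals say little about how well the calls held. With 2 libraries a group, small changes were not detectable, and the depth behind TPM is unknown. The alternatives without the libraries that stood apart (replicate 1 of ENZ.DHT and of APA.DHT), and median-ratio scaling with the block, were added after the data were seen. Causes were not tested, and fits to fewer libraries have fewer degrees of freedom.

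Without the block, 1, 0, 2 and 2 nuclear and 1, 0, 1 and 1 mtDNA-encoded members were called in DHT against VEH and in BIC.DHT, ENZ.DHT and APA.DHT against DHT. Nuclear members called in DHT against VEH became 2 with a pseudocount of 0.1, 2 with MT- genes removed and 3 with median-ratio scaling. In ENZ.DHT against DHT they became 1 with no filter and 1 with median-ratio scaling, and mtDNA-encoded members called in DHT against VEH became 0 with no filter. In fits to only the groups compared, nuclear and mtDNA-encoded members called became 0 in DHT against VEH, ENZ.DHT against DHT and APA.DHT against DHT, and 0 in the enzalutamide by DHT interaction. Median-ratio scaling moved the nuclear median in DHT against VEH from -0.04 to 0.083 (also with the block) and the log2 ratio of the nuclear sums from -0.06 to 0.059, so the nuclear direction in that contrast flips with the scaling.

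With the replicate block, nuclear members called were 9 in DHT against VEH and 5, 20 and 17 in BIC.DHT, ENZ.DHT and APA.DHT against DHT, and 1, 2 and 3 in the bicalutamide, enzalutamide and apalutamide interactions, with 1 mtDNA-encoded member in the enzalutamide one. The block with median-ratio scaling gave 9, 3, 17 and 14 nuclear members, 1 in the apalutamide interaction, and 1 mtDNA-encoded member in the enzalutamide and 1 in the apalutamide interaction. It changed no call in the other contrasts.

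Without both libraries that stood apart, nuclear members called were 3 in DHT against VEH, 1 in ENZ.DHT and 1 in APA.DHT against DHT and 0 in the enzalutamide interaction, mtDNA-encoded members called in APA.DHT against DHT were 0, and the nuclear median in APA.DHT against DHT was 0.040. With the block as well, nuclear members called were 22, 16, 18 and 15 in the 4 contrasts and 7, 5 and 7 in the interactions, 1 mtDNA-encoded member was called in BIC.DHT against DHT, and the nuclear medians were 0.043 in ENZ.DHT and 0.0037 in APA.DHT against DHT.

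Leaving out each replicate in turn gave 1 to 2 nuclear members called in DHT against VEH, 1 to 8 in ENZ.DHT and 1 to 9 in APA.DHT against DHT (8 and 9 without replicate 2 of ENZ.DHT and of APA.DHT) and 0 to 1 in the enzalutamide interaction, and 0 to 0, 0 to 1 and 0 to 1 mtDNA-encoded members in the first 3. Nuclear medians ran from -0.16 to 0.064 in DHT against VEH, -0.11 to 0.11 in BIC.DHT, 0.013 to 0.26 in ENZ.DHT and 0.025 to 0.29 in APA.DHT against DHT, and mtDNA-encoded medians from -0.10 (without replicate 1 of DHT) to 0.53 (without replicate 2), -0.30 to 0.28, -0.41 to 0.22 and -0.41 to 0.21.

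Among the differences of single members recomputed here, these uncalled ones turned sign. MT-ND6 in ENZ.DHT against ENZ.VEH became 0.11 with median-ratio scaling (with and without the block), 0.20 without the libraries that stood apart and 0.16 with the block as well, and ran from -0.27 to 0.20 when single libraries were left out. Leaving out 1 library moved MT-ND6 from -0.084 to 0.010 in BIC.VEH and from -0.31 to 0.064 in APA.VEH against VEH, from -0.24 to 0.30 in APA.DHT against APA.VEH, and from -0.20 to 0.34 in APA.DHT against ENZ.DHT. NDUFAF4 in APA.DHT against APA.VEH became 0.031 with median-ratio scaling, with and without the block.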

Other observations

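Genes that serve the respiratory chain outside the symbol rule were counted in the same way. The first list held 41 genes, mostly assembly factors and carriers. It also held CYC1, a complex III subunit whose symbol falls outside the rule, and SDHAF1 to SDHAF4, which are members too. In DHT against VEH limma called 3 of these genes higher and 1 lower, beside 10.3% of all genes. With the replicate block it called 8 higher and 2 lower, beside 10.6% of all genes higher and 16.8% lower. COX18, which inserts the MT-CO2 protein into the inner membrane, stood at 30.9 and 31.3 TPM in VEH, 45.4 and 52.4 in DHT, 31.9 and 32.6 in BIC.DHT, 26.3 and 27.8 in ENZ.DHT and 28.02 and 28.7 in APA.DHT, and both DHT libraries lay above all the others. Its log2 fold change was 0.63 in DHT against VEH (limma adjusted p = 0.0074), and -0.58 (0.027), -0.83 (0.0019) and -0.76 (0.0035) in BIC.DHT, ENZ.DHT and APA.DHT against the same DHT libraries. COA4, a complex IV assembly factor, rose with DHT (0.56, adjusted p = 0.022), as did FOXRED1 for complex I (0.44, 0.039), and UQCC1 for complex III fell (-0.72, 0.021).

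Of 14 tested regulators of mitochondrial transcription and biogenesis, 0 were called in DHT against VEH, and of 17 genes of mtDNA upkeep and RNA handling also 0, by limma without the block; with it 2 were called higher and 0 lower, and 5 higher and 1 lower, beside the same 10.6% and 16.8%. In ENZ.DHT and APA.DHT against DHT, where limma called 9.65% and 8.36% of all genes, PPRC1, a coactivator of the PGC-1 family, fell (-0.54 and -0.57), as did FASTKD5, which processes mitochondrial RNA (-0.73 and -0.65), and the mtDNA topoisomerase TOP1MT rose (0.44 and 0.46). Mitochondrial ribosomal protein genes were listed by symbol, and the 83 tested symbols include the pseudogene MRPL45P2. Of the 83, 2 rose in DHT against VEH (MRPL24 and MRPS18A, log2 fold changes 0.47 and 0.76) and MRPS27 fell (-0.64), beside 10.3% of all genes. With the block 17 were called higher and 1 lower, beside 10.6% and 16.8%. The median log2 fold changes of these lists in DHT against VEH were 0.03 for assembly, 0.05 for biogenesis, 0.21 for RNA handling and 0.16 for the ribosome, beside -0.10 for all genes.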
